A study of Arabidopsis thaliana with 12 samples.

Results

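Of the 22746 non-control probe sets of the Affymetrix ATH1 array, 51 were higher in Arabidopsis seedlings given trichostatin A (TSA) while staying close to the control level after 5-aza-2'-deoxycytidine (5-AC) and in the *ddm1* mutant. A probe set is a group of short probes that reports on one transcript, or on several with shared sequence. Members were chosen from the measured values by 4 conditions: a mean log2 value at least 1.5 higher in TSA than in untreated Ws, every TSA array above every Ws array, and mean differences from Ws of 0.5 or less in size for 5-AC and for *ddm1*. Probe sets that the platform's table assigns to a mitochondrial or chloroplast gene, or to a gene of RefSeq type pseudogene, were left out. The members' levels in these 4 groups are therefore a description of what was selected and carry no test.

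The series holds 4 groups of 3 arrays. The study calls the replicates of the groups it describes biological, and it does not describe the TSA group. The limma p-values for TSA rest on the spread between arrays within groups, pooled over all 4 groups. For the TSA arrays that spread may be technical. All seedlings were of ecotype Ws, grown in liquid 0.5× MS medium with 1% sucrose in constant light at 21 °C, and RNA came from whole seedlings. The age was 10 days by the labels, while the study's methods give a later harvest for the groups they describe. The TSA group received TSA at 2.5 mg/L in DMSO and the 5-AC group 5-AC at 20 mg/L in DMSO, 24 h after the start, with the medium renewed after 5 days. Untreated Ws seedlings and seedlings of *ddm1*, a mutant of a chromatin remodeling factor with a T-DNA in its gene, received DMSO alone. Whole seedlings mix many cell types, so more RNA per cell and more cells of one type cannot be told apart. No probe set was assigned to *DDM1* in the platform's table, so the label of the mutant was not checked here.

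TSA inhibits histone deacetylases, the enzymes that remove acetyl groups from histone tails. Acetylated histones are usually found at active genes, and deacetylation accompanies silencing, together with DNA methylation and chromatin remodeling by DDM1 at many transposons. 5-AC blocks the maintenance of DNA methylation. The chosen probe sets were higher with the first agent and near the level of Ws with the other agent and in the mutant, at 1 dose and 1 time of each.

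Every TSA array lay above every Ws array for 25.8% of all non-control probe sets, and the full condition on TSA was met by 274, or 1.20%. Of these, 25 were assigned to an organelle gene and 0 to a gene of type pseudogene. Among the 249 left, 148 lay above the window after 5-AC, 48 lay below it, 2 were within it after 5-AC but outside it in *ddm1*, and 51 met the whole rule. In the fit across all tested probe sets, limma called 49 of the 51 higher after TSA, against 7.11% of all those tested. That count follows from the rule and nothing is read from it. The 2 that were not called were AT5G01740 and an unnamed probe set whose arrays spread widely, 250868_at.

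**Figure D1:**
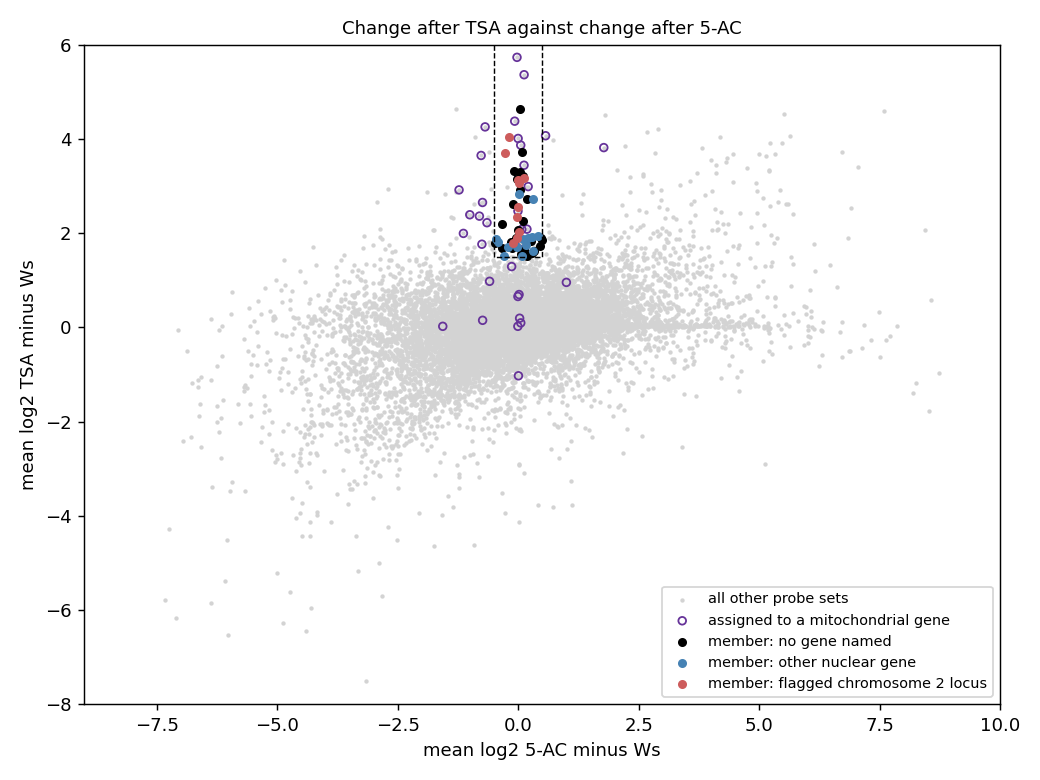
Mean log2 difference from Ws after TSA (vertical) against that after 5-AC (horizontal) for every non-control probe set, 1 point each, with the members coloured by annotation and probe sets of mitochondrial genes as open circles. The dashed box marks the region of the rule, at 1.5 and above and within 0.5 of 0, and mitochondrial probe sets, left out of the members by annotation, reach 5.73 in it.

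The members fell into 3 classes by annotation. A stretch of chromosome 2 supplied 10. Their locus codes were taken to mark the region where the Columbia reference genome carries a large copy of the mitochondrial genome near the centromere. Codes do not follow position exactly, and some in the flagged range lie outside the stretch. A further 14 were assigned to other nuclear genes, on all 5 chromosomes (2, 3, 2, 2 and 5 members on chromosomes 1 to 5). The remaining 27 have no gene in the platform's table, so whether their transcripts are nuclear could not be checked. Some of them carry probe set numbers beside those of mitochondrial genes, and what they detect was not tested. The set is therefore described here by its rule rather than as nuclear genes. All 24 named genes are of type protein coding in RefSeq.

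The classes were set side by side by their values, with no test. The mean log2 value of the flagged loci in Ws had a median of 2.59, and 4 of the 10 lay below the 25th percentile of every Ws array, which is near the floor of the signal. For the 14 other named genes the median in Ws was 5.69 and none lay below that percentile in every Ws array. The lowest of them, AT5G56910 and AT2G43870, had means of 2.9 and 2.98 in Ws, little above it. The median difference of TSA from Ws was 2.82 for the flagged loci, 1.84 for the other named genes and 1.89 for the unnamed probe sets. After TSA no member was near the floor in all arrays of the group. Fold changes that start near the floor depend on the background correction.

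**Figure D2:**
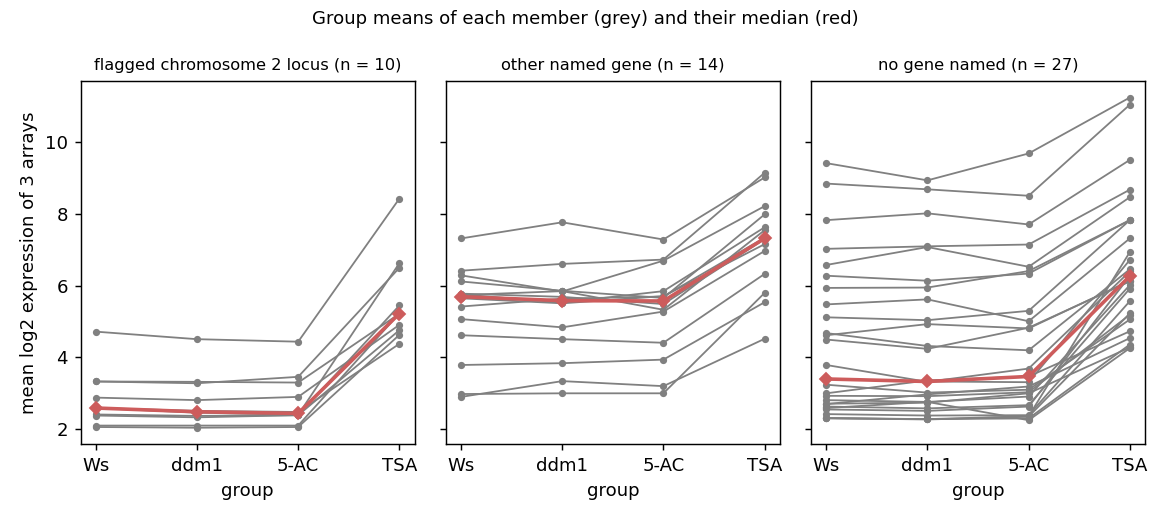
Mean log2 level of each member in the 4 groups (grey lines, mean of 3 arrays), with the median over the members of each class in red. The median is 2.59 in Ws and 5.23 after TSA for the flagged chromosome 2 loci and 5.69 and 7.32 for the other named genes, while the levels in 5-AC and *ddm1* stay near Ws by construction of the rule.

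AT2G07722 had the largest difference among the named members. Its log2 values were 2.97, 2.52 and 2.28 in Ws, 6.49, 6.96 and 6.44 after TSA, 2.75, 2.20 and 2.25 after 5-AC, and 2.68, 2.50 and 2.20 in *ddm1*. The TSA arrays stood apart from all 9 others, with a mean of 6.63 ± 0.29 (SD, n = 3) against 2.59 ± 0.35 (SD, n = 3) in Ws, where 2 of the 3 arrays lay below 2.62, the lowest 25th percentile of any array, so that no fold is given.

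AT2G07741 was the only flagged locus with a mean above 4 in Ws. It gave 4.31, 5.32 and 4.53 in Ws and 8.59, 8.92 and 7.79 after TSA, a difference of 3.71. Its values of 4.18 to 4.67 after 5-AC and 4.42 to 4.57 in *ddm1* lay within the range of the Ws arrays or just below it.

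AT2G07674 gave 3.46, 3.19 and 3.33 in Ws and 6.32, 7.17 and 6.02 after TSA, a difference of 3.17. AT2G07728 gave 2.12, 2.10 and 2.09 in Ws and 5.08, 6.09 and 4.52 after TSA. AT2G07678 gave 2.40, 2.35 and 2.39 in Ws and 5.44, 6.10 and 4.80 after TSA. In these last 2 loci the Ws arrays lay within 0.05 of each other at the floor, while the TSA arrays spread over more than 1 log2 unit and differed from Ws by 3.13 and 3.07.

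A like form, tight at the floor in Ws and wider after TSA, was seen for AT2G07676 and, with a smaller spread, AT2G07705. AT2G07676 had 2.07, 2.05 and 2.07 in Ws and 4.55, 5.53 and 3.81 after TSA, a difference of 2.56. AT2G07705 had 2.41, 2.39 and 2.42 in Ws and 4.64, 5.18 and 4.46 after TSA, a difference of 2.35. AT2G07739 had the closest TSA arrays of the flagged loci, at 5.03, 4.78 and 4.92 against 2.89, 2.87 and 2.89 in Ws.

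AT2G07732 and AT2G07718 had the smallest differences of the 10. AT2G07732 gave 3.36, 3.30 and 3.32 in Ws and 5.17, 6.53 and 3.97 after TSA, and its difference of 1.90 ranged from 1.24 to 2.52 when single arrays were left out. AT2G07718 gave 2.54, 2.73 and 2.49 in Ws and 4.25, 4.86 and 4.03 after TSA, a difference of 1.79. No TSA array of these loci overlapped a Ws array, and for AT2G07732 the lowest TSA array lay 0.61 above the highest Ws array.

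Within the TSA group the flagged loci varied together. TSA replicate 2 was the highest of the 3 arrays for 9 of the 10 and TSA replicate 3 the lowest for 9 of the 10. The median level over the 10 loci was 5.12 in TSA replicate 1, 6.10 in replicate 2 and 4.66 in replicate 3. Over all non-control probe sets replicate 2 was the highest TSA array for 30.7% and replicate 3 the lowest for 26.6%, and among the tested probe sets called higher after TSA the shares were 49.3% and 46.9%. Among the 14 other named genes replicate 2 was the highest for 5 and replicate 3 the lowest for 5.

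**Figure D3:**
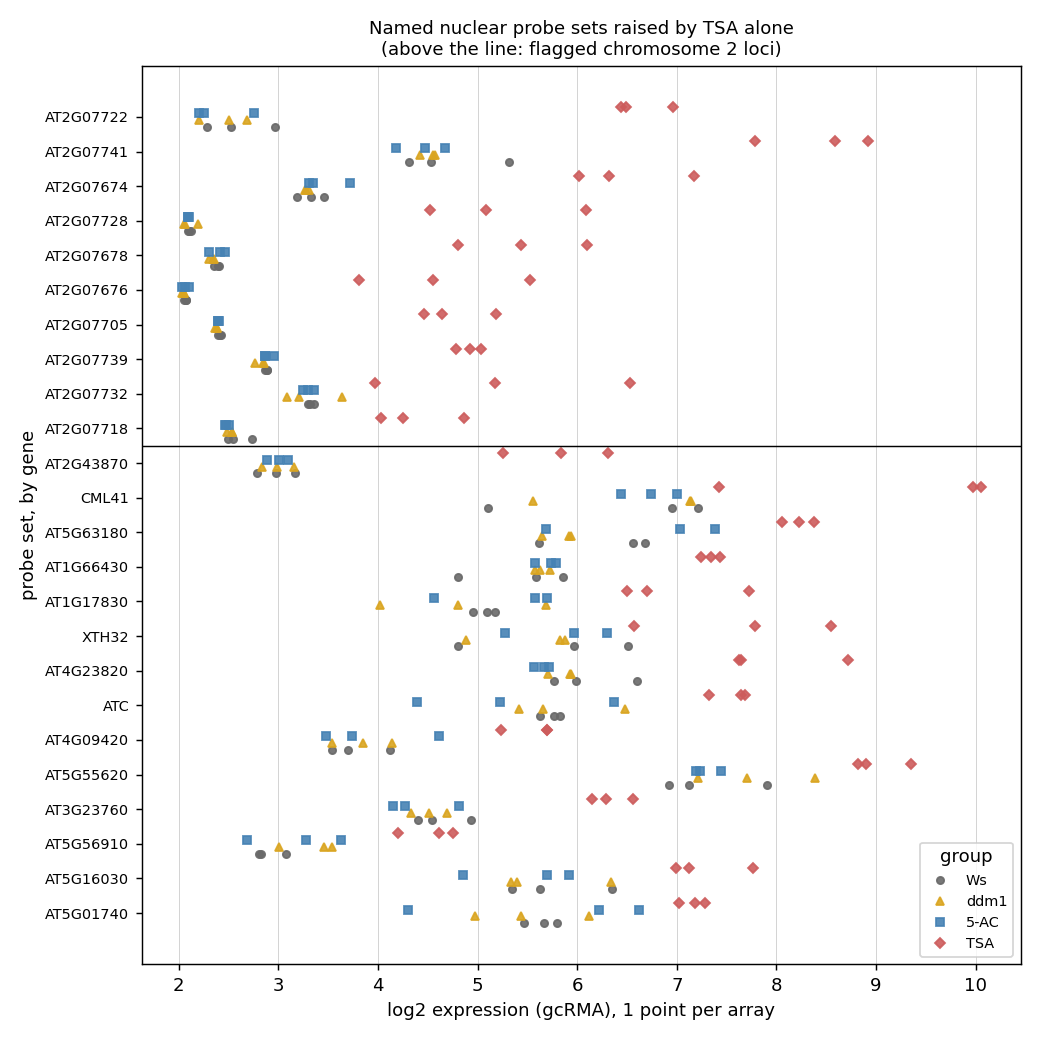
Log2 values of the 24 named members, 1 point per array and 3 arrays per group, with the 10 flagged chromosome 2 loci above the line. Every TSA point (red diamonds) lies to the right of every Ws point (grey circles) in each row, as the rule requires, by a gap that runs from 0.06 for *XTH32* to 3.46 for AT2G07722.

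Most of these loci cannot be read as single transcripts. Of the 10 probe sets, 8 carry the platform's mark for probes that match several sequences, against 4.66% of all non-control probe sets and 0 of the other 14 named members. A probe set that matches both the mitochondrial genome and its chromosome 2 copy cannot tell the 2 transcripts apart. The array was designed on the Columbia sequence, and whether Ws carries the insertion was not analysed here.

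Probe sets of mitochondrial genes gave the comparison for these loci, since annotation left them out of the members whatever their TSA value. Of 35 such probe sets, 32 were tested, and 27 were higher and 1 lower after TSA at an adjusted p under 0.05 (limma, 3 arrays per group), against 7.11% higher and 7.28% lower of all those tested. Their median difference was 2.22, against 0.02 over all tested. Of the 24 assigned to mitochondrial genes alone 17 were higher and 1 was lower, with a median of 1.90, and of the 11 assigned to a nuclear gene as well 10 were higher, with a median of 2.65. The order of the arrays was that of the flagged loci: TSA replicate 2 was the highest for 29 of the 35 and replicate 3 the lowest for 27, against the 49.3% and 46.9% of all probe sets called higher.

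The mitochondrial genome encodes subunits of the respiratory chain, ribosomal proteins and factors for cytochrome *c* biogenesis. Of these, *nad1*, a subunit of complex I, held the largest difference. Its highest probe set gave 2.61, 2.54 and 2.53 in Ws and 7.83, 9.13 and 7.92 after TSA (difference 5.73, standard error 0.27, adjusted p = 1.5e-06 from limma). In this probe set the SD was 0.04 in Ws and 0.73 after TSA, and the methods' t-test gave an adjusted p of 0.16. The probe sets of *nad1* alone did not move alike, and the others differed by 5.36, 2.36, 1.80, 0.70, 0.65 and 0.02. The *cox2* probe set, for a subunit of cytochrome *c* oxidase, gave 4.47, 5.24 and 4.33 in Ws and 8.32, 9.26 and 7.91 after TSA, and its mean after 5-AC lay 1.78 above Ws. Probe sets of mitochondrial genes thus did not all stay near Ws after 5-AC. Their mean differences ran from -1.56, for *rps12* with AT2G07675, to the 1.78 of *cox2*, and *cox1* lay 1.0 above Ws. After TSA, probe sets of other genes of this genome changed less or fell. *cox1* was higher after TSA by 0.95 (adjusted p = 0.0014 from limma) and *nad4* differed by 0.15 (adjusted p = 0.72 from limma). *ccb382*, for cytochrome *c* biogenesis, fell by 1.03 (adjusted p = 0.026 from limma), a call lost without Ws replicate 2 (adjusted p = 0.051) and without each TSA array (0.054 to 0.073). Under the methods' t-test neither *cox1* (adjusted p = 0.14) nor *ccb382* (adjusted p = 0.35) was called.

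Had organelle assignment not barred them, 13 probe sets of mitochondrial genes would have joined the 51. Of these, 8 were assigned to mitochondrial genes alone, namely 3 of *nad1* and 1 each of *nad5*, *nad4L*, *nad6*, *ccb203* and *ccb206*. The other 5 were shared with a chromosome 2 locus: *nad1* with AT2G07701 and with AT2G07702, *rpl2* with AT2G07715, *cob* with AT2G07727 and *rps7* with AT2G07696. For these 5, the platform's naming alone separates them from the members.

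In chromosome order the 10 flagged members lay among 33 probe sets from AT2G07674 to AT2G07741. The 23 that were not members had a median difference of 0.96, and 11 of the 15 tested were higher after TSA, 0 lower (limma). The higher ones were mostly the 10 that also name a mitochondrial gene: 9 were higher and their median was 2.82, with *cox3* and AT2G07687 at 4.07 (adjusted p = 2.4e-05) and *atp1* and AT2G07698 at 2.39 (adjusted p = 7.8e-05, limma). *rps12* with AT2G07675 was the exception at 0.02 (adjusted p = 0.98, limma). Under the methods' t-test the call of *cox3* and AT2G07687 was lost (adjusted p = 0.14), while that of *atp1* and AT2G07698 stayed.

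The 13 probe sets of the stretch that were neither members nor named for a mitochondrial gene differed by up to 0.99, with a median of 0.31. Members had to reach 1.5, so low values among the rest follow in part from the rule. Only 5 of these were tested, and AT2G07695 (0.99, adjusted p = 0.024) and AT2G07708 (0.96, adjusted p = 0.008, limma) were higher. The call of AT2G07695 was lost without any single Ws array or TSA replicate 2 (adjusted p from 0.053 to 0.065). Neither AT2G07695 nor AT2G07708 was called under the methods' t-test (adjusted p = 0.35 and 0.28). AT2G07751 differed by 0.98 (adjusted p = 0.061, limma) and passed the threshold without TSA replicate 1 (adjusted p = 0.05). Loci near the floor in both groups, such as AT2G07714 and AT2G07692 at 0.02 and 0.03, lay in the same stretch.

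The ends of the stretch are set by members and so by the rule. The nearest 5 measured genes after AT2G07741, all annotated as a kind of pseudogene, differed by 0.01 to 0.06. Their codes, AT2G07670, AT2G07700, AT2G07720, AT2G07730 and AT2G07740, also fall in the flagged range. On the other side, the probe set of *atp9* and AT2G07671 was higher by 1.76 (adjusted p = 0.00017 from limma, and 0.18 from the methods' t-test). AT2G07776 differed by 0.89 (adjusted p = 0.068 from limma, and 0.016 without TSA replicate 3), AT2G07749 by 0.48, AT2G07673 by 0.22 and AT2G07777 by 0.01.

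**Figure D4:**
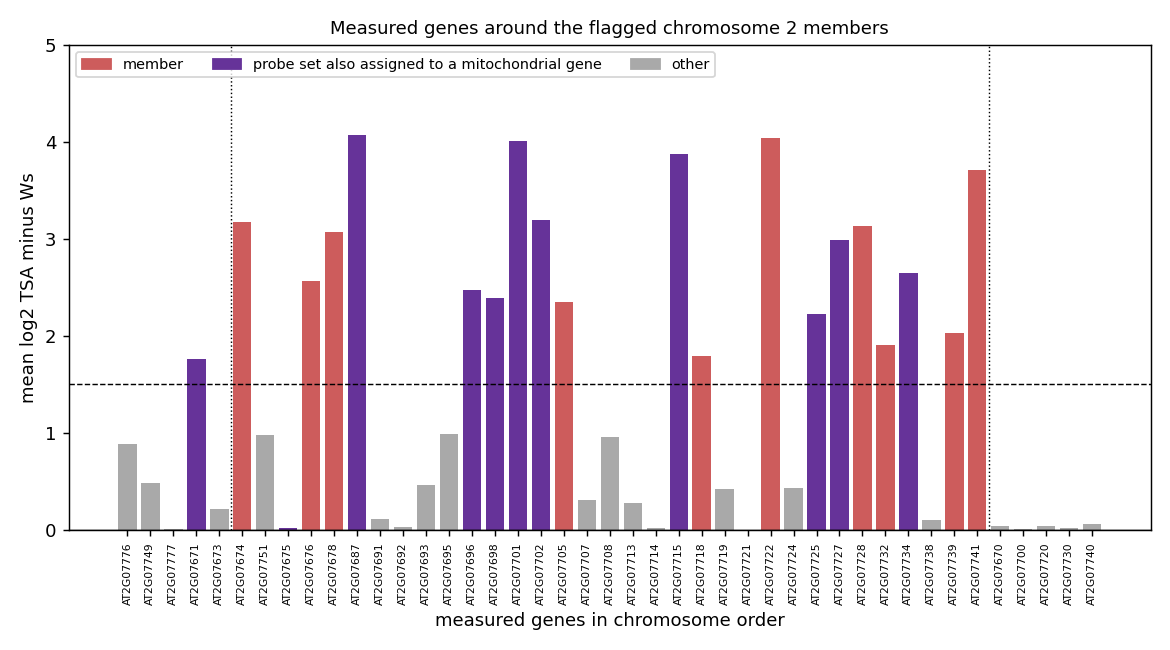
Mean log2 difference of TSA from Ws (bars) for 43 measured genes in chromosome order around the flagged chromosome 2 loci, with dotted lines at the first and last member and a dashed line at 1.5. Members (red) and probe sets that also name a mitochondrial gene (purple) stand between 1.76 and 4.07 except AT2G07675 at 0.02, and other genes (grey) are below 1, where the gap between red and grey bars follows from the rule.

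Among the 14 other named members AT2G43870 had the largest difference and the lowest start but one. It gave 2.98, 2.78 and 3.17 in Ws and 6.31, 5.84 and 5.25 after TSA, a difference of 2.83. No fold is given, since its Ws arrays lay little above 2.7, the highest 25th percentile of any array. Its values of 2.89 to 3.10 after 5-AC and 2.83 to 3.16 in *ddm1* lay inside the Ws range, so the TSA arrays stood apart from all others.

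*CML41*, which encodes a calmodulin-like protein of the calcium sensor family, was the most variable of the named members in Ws and after TSA. Its values were 7.21, 5.10 and 6.95 in Ws, 9.97, 10.05 and 7.42 after TSA, 7.00, 6.74 and 6.44 after 5-AC, and 7.13, 5.56 and 7.14 in *ddm1*. TSA replicate 3 lay only 0.21 above Ws replicate 1, and the difference of 2.73 ranged from 2.07 to 3.59 when single arrays were left out. Its group means were 9.15 ± 1.49 after TSA and 6.42 ± 1.15 in Ws (SD, n = 3).

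*XTH32* belongs to the xyloglucan endotransglucosylase/hydrolases, which cut and rejoin xyloglucan in the cell wall. It gave 4.80, 5.97 and 6.51 in Ws, 6.57, 7.79 and 8.55 after TSA, 5.27, 5.97 and 6.30 after 5-AC, and 4.88, 5.88 and 5.83 in *ddm1*. The lowest TSA array exceeded the highest Ws array by only 0.06, the narrowest gap of the named members, with a difference of 1.88 between means and a range of 1.40 to 2.41 when single arrays were left out.

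*ATC*, the Arabidopsis counterpart of snapdragon CENTRORADIALIS and a relative of TERMINAL FLOWER 1, a repressor of flowering, was among the most even members. Its values were 5.77, 5.63 and 5.83 in Ws and 7.32, 7.64 and 7.68 after TSA, a difference of 1.81. After 5-AC it spread over 4.39, 5.22 and 6.37, whose mean lay 0.41 below Ws, so that its place in the window rests on a mean of scattered arrays.

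AT5G63180 and AT1G66430 were tight after TSA. AT5G63180 gave 5.62, 6.56 and 6.68 in Ws and 8.06, 8.23 and 8.38 after TSA, a difference of 1.94, and AT1G66430 gave 4.80, 5.59 and 5.86 in Ws and 7.24, 7.34 and 7.43 after TSA, a difference of 1.92. AT5G63180 was near both edges of the window, 0.41 above Ws after 5-AC and 0.45 below it in *ddm1*. Its 5-AC arrays were scattered at 7.03, 5.69 and 7.38, so that its place in the window rests on their mean.

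AT1G17830 and AT4G23820 each owed part of their mean to 1 TSA array. AT1G17830 had 4.95, 5.17 and 5.09 in Ws and 6.50, 7.72 and 6.70 after TSA, a difference of 1.90. Its 5-AC arrays were scattered too, at 5.7, 5.58 and 4.56, with a mean 0.21 above Ws. AT4G23820 had 5.77, 5.99 and 6.60 in Ws and 7.64, 7.62 and 8.72 after TSA, a difference of 1.87, and its 5-AC mean lay 0.46 below Ws.

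AT4G09420 and AT3G23760 began below 5.0, the median level of all non-control probe sets in Ws. AT4G09420 gave 3.70, 3.54 and 4.12 in Ws and 5.70, 5.70 and 5.23 after TSA, a difference of 1.75, while AT3G23760 gave 4.40, 4.93 and 4.54 in Ws and 6.29, 6.56 and 6.15 after TSA, a difference of 1.71. AT5G55620, the member of this class with the highest mean in Ws, gave 6.92, 7.91 and 7.12 there and 8.90, 8.82 and 9.35 after TSA, a difference of 1.71.

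AT5G56910, AT5G16030 and AT5G01740 were, with AT5G55620, the named members nearest the threshold, at 1.62, 1.52 and 1.51. AT5G56910 was low in Ws at 2.80, 2.82 and 3.08 and reached 4.75, 4.20 and 4.61 after TSA. AT5G16030 gave 5.35, 6.35 and 5.63 in Ws and 7.77, 6.99 and 7.12 after TSA. AT5G01740 gave 5.80, 5.67 and 5.47 in Ws and 7.18, 7.28 and 7.02 after TSA, and 6.62, 6.22 and 4.30 after 5-AC. Just outside, and otherwise meeting the rule, were AT2G07773 at 1.48, AT3G15520 and *ALDH3F1*, an aldehyde dehydrogenase gene, at 1.47, and AT4G19380 at 1.41. AT2G07773 has a code in the flagged range and a probe set marked for several sequences, and its mean in Ws was 2.17. It was not among the genes given above in chromosome order.

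The 27 members with no gene name spanned the whole range of levels, with means in Ws from 2.30 to 9.42 and 6 of the 27 near the floor there. Their differences ran from 1.52 to 4.63. The largest of all 51 was that of probe set 257319_at, with 2.41, 2.38 and 2.16 in Ws, 6.62, 7.69 and 6.51 after TSA, 2.36, 2.37 and 2.35 after 5-AC, and 2.35, 2.19 and 2.29 in *ddm1*. The TSA arrays of 257319_at stood 4.11 above the highest Ws array. In contrast, 250868_at, with 4.92, 6.33 and 4.10 in Ws and 6.82, 8.11 and 8.57 after TSA, reached 7.84 in 1 of its 5-AC arrays (4.16, 3.89 and 7.84), and was the single member whose TSA and 5-AC arrays overlapped.

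For 50 of the 51 members every TSA array also lay above every 5-AC array, against 30.5% of all non-control probe sets, and for 50 above every *ddm1* array, against 38.6%. These counts follow largely from the rule. Within the window the members lay on both sides of Ws, 30 above and 21 below it after 5-AC, and 17 above and 34 below it in *ddm1*. All 10 flagged chromosome 2 loci lay at or just below Ws in *ddm1*, by up to 0.20, with a median of -0.05. No share over all probe sets is set beside these counts on either side of Ws, so nothing is read from them.

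Length and position gave the following for the named members. The 14 other genes had a median length of 2061 bases in RefSeq (859 to 3194), close to the 2107 of all 13264 measured nuclear genes with a single name, and the 10 flagged loci one of 931 bases (201 to 5799). None of the 24 genes had another named probe set, so no member could be read a second time on the array.

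The nearest genes with a named probe set on each side of the 14 other named members were read as a measure that the rule did not use. They need not adjoin the member, since 8730 probe sets have no name. Of 28 measured neighbours 21 were tested, and 4 were higher and 2 lower after TSA (limma), against 7.11% and 7.28% of all tested. Their median difference was 0.17, against 0.02 over all tested.

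On one side of AT4G23820 the nearest was *WRKY53*, which encodes a WRKY transcription factor linked to leaf senescence. It gave 2.98, 2.79 and 3.09 in Ws and 6.35, 8.29 and 5.29 after TSA, a difference of 3.69 (standard error 0.77, adjusted p = 0.0092 from limma). Under the methods' t-test neither this call nor any of the 5 others among the neighbours remained (adjusted p = 0.28 for *WRKY53*, and 0.17 to 0.34 over the 6). Unlike AT4G23820, *WRKY53* was also high after 5-AC, at 8.38, 9.46 and 7.01, while *ddm1* gave 4.64, 2.81 and 3.33.

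The other 3 higher neighbours changed less. AT2G36885, near *XTH32*, gave 6.01, 6.73 and 6.86 in Ws and 7.24, 7.89 and 7.80 after TSA (difference 1.12, adjusted p = 0.0091 from limma, and 0.071 in a fit of Ws and TSA alone), with no overlap. AT5G16010, near AT5G16030, differed by 1.03 (adjusted p = 0.022, limma), a call lost without Ws replicate 1 (0.084), TSA replicate 2 (0.083) or TSA replicate 3 (0.054). AT5G01750, near AT5G01740, differed by 0.69 (adjusted p = 0.04, limma), a call lost without Ws replicate 1 or 2, any TSA array or any *ddm1* array (adjusted p from 0.055 to 0.13).

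Both lower neighbours were close to the threshold. AT1G17790, near AT1G17830, fell by 0.61 (adjusted p = 0.048) and AT5G55640, near AT5G55620, fell by 0.49 (adjusted p = 0.044, limma). Both calls were lost when most single arrays were left out, with adjusted p up to 0.16 and 0.15. The neighbours of *CML41*, *UGT72E1* at -0.52 (adjusted p = 0.28) and AT3G50780 at -0.31 (adjusted p = 0.6, limma), did not pass the test.

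Lists of 115 genes for chromatin enzymes, other organs, stress and housekeeping were set beside the members, which hold none of them. Only 17 had a probe set with a gene name, and of the 14 tested 1 was higher and 1 lower after TSA (limma), a share near the 7.11% and 7.28% of all tested. Both calls were among the 3 of 9 mitochondrial stress genes measured, and nothing is read from the list. *UPOX*, a nuclear gene for a mitochondrial protein induced by oxidative stress, gave 6.34, 5.99 and 5.33 in Ws and 7.44, 7.77 and 7.12 after TSA (difference 1.56, adjusted p = 0.049), a call lost without any single Ws, TSA or 5-AC array and without *ddm1* replicate 2 (adjusted p from 0.055 to 0.15). *NDB2*, an external NADH dehydrogenase of the inner mitochondrial membrane, gave 8.58, 8.17 and 8.06 in Ws and 6.91, 7.45 and 7.05 after TSA (difference -1.14, adjusted p = 0.008, limma). Neither *UPOX* nor *NDB2* was called under the methods' t-test (adjusted p = 0.21 and 0.17).

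Among the histone deacetylase genes, *HDA15* differed by -0.11 (adjusted p = 0.70, limma) and *HDA7* was near the floor in both groups, and no histone acetyltransferase gene had a named probe set. Of the markers of the labelled whole seedling, *RCA*, Rubisco activase of leaves, was at 13.72 in Ws and 13.80 after TSA, and *PYK10*, a root beta-glucosidase, at 12.53 and 12.28. Root hair expansins *EXPA7* and *EXPA18* differed by -0.76 and -0.58 (adjusted p = 0.14 and 0.36, limma). Markers of other organs were low: *MGH3* of sperm and *A9* of the tapetum were near the floor in both groups, and *OLEO3* of seeds gave 3.87 in Ws and 3.24 after TSA (adjusted p = 0.37, limma). *HSP17.6C* and *HSP22*, for heat shock proteins, differed by 0.69 and 0.28 (adjusted p = 0.27 and 0.64, limma).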

How the data were processed

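The deposited log2 values were computed by the authors with gcRMA in Bioconductor, which adjusts background by probe sequence, normalizes arrays by quantiles and gives 1 value per probe set. All 12 value columns were used. Array medians ran from 4.92 to 5.03, and with 3 arrays per group that number sets the precision. The TSA group is described by the labels alone. The members, gene lists and tests were chosen with earlier results of these data known. Named were the 20 highest members with 1 gene name, the 4 named probe sets nearest the threshold on each side, all flagged loci (AT2G07660 to AT2G07800 by code), the 4 largest changes of each list and the 6 of the neighbours. Of 22810 probe sets 64 controls were left out, and 13513 had 1 gene in the platform's table, 503 several and 8730 none. Old symbols were updated through RefSeq (TAIR10.1), whose gene order gave the neighbours. No genome sequence was used, so coordinates, sequences and promoter motifs are not given. The 17204 probe sets with the highest second-highest value (2.98 or more) were fitted with limma 3.58.1 in R 4.3.3 (1 coefficient per group, all arrays, two-sided, Benjamini-Hochberg, threshold 0.05), after a test on simulated data. Tables were joined with pandas 2.3.3 in Python 3.11.15. Alternatives were the methods' t-test, other thresholds, filters, centring, a replicate block and leaving out each array. Deviations of equally numbered arrays correlated at 0.41, 0.52 and 0.23 between *ddm1* and Ws and at 0.24, -0.06 and 0.15 between TSA and Ws. The labels state no pairing of the arrays, and the main fit assumed none.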

Additional observations from a re-analysis of the deposited data

How the results depend on the processing

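The members numbered 159 with a threshold of 1, 22 with 2, 33 with a window of 0.3 and 82 with 1. Centring on 3 housekeeping genes moved every TSA difference by -0.06 and gave 41 members, 37 of them shared with the 51, and group medians gave 50, 35 of them shared. Leaving out single arrays gave 44 to 65 members, with 37 to 49 of the 51 kept. For TSA against Ws, 1224 probe sets were higher and 1253 lower (2480 and 2424 at an unadjusted p under 0.05). The methods' t-test gave 4 and 4, a fit of the 2 groups alone 812 and 831, and leaving out single arrays 701 to 1486 and 828 to 1420. For 5-AC the t-test gave 2528 higher and 2026 lower in place of 5296 and 4508. For *ddm1*, with 232 higher and 37 lower, it gave 35 and 0 (605 and 552 at an unadjusted p under 0.05 in limma), a stricter filter 130 and 18, and probe sets of a single sequence 124 higher. Leaving out single arrays gave 20 to 49 lower in *ddm1*. Of the mitochondrial probe sets the t-test called 1 higher and 0 lower, and limma on single-sequence probe sets 11 higher. That last fit leaves out those marked for several sequences, so its count has a smaller base than the 27. Leaving out arrays gave 26 to 27 higher and 0 to 1 lower. These alternatives were chosen after seeing the data. Of the listed genes 0 were higher under the t-test, with housekeeping centring and in the lowest case of leaving out arrays (0 to 1), and 0 were lower under the t-test (1 to 2 when leaving out arrays). With the replicate block 1420 probe sets were higher and 1469 lower after TSA, 27 mitochondrial probe sets were higher and 4 neighbours higher, but 1 neighbour was lower in place of 2, and AT2G07751 passed the threshold (adjusted p = 0.011). The block changed no other count by over 1.5 times.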
